A study of Homo sapiens with 9 samples.

Results

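The 3 arrays compared here as KL1 came from HCT 116 cells that received a vector encoding the KL1 subdomain of mouse klotho, and 3 arrays from cells given empty pcDNA3 served as control. They are 6 of the 9 arrays of the series. The other 3 arrays, KL-FL, came from cells given mouse full-length klotho. They enter where KL1 is set against them and in the choice of probe set. The main model also draws on them for the spread behind each SE, interval and p. HCT 116 is an established human colorectal cancer line, kept below passage 40, and RNA was taken 24 hours after transfection in every group. Samples were assigned by their titles. All groups share the transfection, and the labels name pcDNA3 for the control only. JetPEI and polyethylenimine are both listed as reagents without being assigned to samples. An array sums over all cells of a dish, so fewer responding cells and a smaller response per cell cannot be told apart.

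Expression was read on a human whole-transcript array from 100 ng of total RNA and deposited as log2 values, so a difference of 1 is a doubling. Of 33297 probe sets, 19181 name a single gene, and keeping the brightest probe set per gene gave 17958 genes. Medians of the 9 arrays lay between 5.38 and 5.42. KL1 replicate 2 scattered most within its group, with an SD over genes of 0.078 around the group mean, against 0.062 and 0.059 for KL1 replicates 1 and 3 and 0.051 to 0.056 for the controls. Epithelial markers that define the line's origin were read on all 6 arrays, with EPCAM between 9.74 and 9.82, KRT8 between 10.6 and 10.8 and CDH1 between 8.45 and 8.59. Of 26 epithelial genes measured, 11 were higher and 15 lower in KL1. Whether replicates were separate cultures is not labelled. A p-value here thus reflects the scatter of these arrays, which may be technical, and their small number limits all precision.

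Klotho is a membrane protein whose extracellular part holds a pair of glycosidase-like subdomains, KL1 and KL2, and which serves as co-receptor for the hormone FGF23. The title of the series ties klotho to the unfolded protein response. That response begins at sensors in the membrane of the endoplasmic reticulum (ER). ERN1 (IRE1) splices XBP1 messenger RNA, ATF6 is cut in the Golgi to release a transcription factor, and EIF2AK3 (PERK) phosphorylates eIF2alpha, which favours translation of ATF4. XBP1 and ATF6 act mainly on chaperones, foldases and ER-associated degradation, the route that returns misfolded proteins to the cytosol for destruction. ATF4 acts on amino acid supply, on other stress factors and on DDIT3, which encodes CHOP.

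The promoters of the genes on which the comparison turns are shown with the elements of this response that a letter search found in them. The windows run from 250 bases before to 50 bases after the start of the RefSeq gene in GRCh38.p14, each written 5′ to 3′ on the gene's own strand. Capitals mark matches, on either strand, to the ER stress response element ERSE (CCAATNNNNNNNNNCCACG), to ERSE-II (ATTGGNCCACG) or to the C/EBP-ATF element CARE (TTGCATCA). The HSPA5 window (chr9:125241294-125241593, minus strand) has an ERSE from base -66 to base -48. The HSP90B1 window (chr12:103930160-103930459, plus strand) has 2, the nearer on the opposite strand. The HERPUD1 window (chr16:56931892-56932191, plus strand) has an ERSE-II and a CARE. The DDIT3 window (chr12:57520465-57520764, minus strand) has no exact match, which says nothing about factors that bind there or elsewhere. Its stretch ccaatgccggcgtgccact differs from ERSE only in the last letter, and the search counted exact matches only.
HSPA5: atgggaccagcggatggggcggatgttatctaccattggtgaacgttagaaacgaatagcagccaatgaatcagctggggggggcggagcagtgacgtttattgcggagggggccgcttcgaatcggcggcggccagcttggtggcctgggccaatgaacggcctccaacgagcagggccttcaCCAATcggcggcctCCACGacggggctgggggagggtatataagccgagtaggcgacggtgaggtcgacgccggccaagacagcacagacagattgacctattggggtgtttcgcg
HSP90B1: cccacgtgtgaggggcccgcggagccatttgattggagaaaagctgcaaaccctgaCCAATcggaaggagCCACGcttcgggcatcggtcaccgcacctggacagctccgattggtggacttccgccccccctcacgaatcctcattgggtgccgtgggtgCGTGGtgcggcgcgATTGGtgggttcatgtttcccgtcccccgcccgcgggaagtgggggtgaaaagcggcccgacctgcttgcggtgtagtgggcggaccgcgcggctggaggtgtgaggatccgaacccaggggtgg
HERPUD1: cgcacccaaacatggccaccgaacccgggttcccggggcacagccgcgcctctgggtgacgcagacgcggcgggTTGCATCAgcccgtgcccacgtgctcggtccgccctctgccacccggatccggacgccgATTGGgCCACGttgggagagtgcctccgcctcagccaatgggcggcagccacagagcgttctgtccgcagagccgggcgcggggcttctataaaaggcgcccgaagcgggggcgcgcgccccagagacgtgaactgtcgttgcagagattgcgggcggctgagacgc
DDIT3: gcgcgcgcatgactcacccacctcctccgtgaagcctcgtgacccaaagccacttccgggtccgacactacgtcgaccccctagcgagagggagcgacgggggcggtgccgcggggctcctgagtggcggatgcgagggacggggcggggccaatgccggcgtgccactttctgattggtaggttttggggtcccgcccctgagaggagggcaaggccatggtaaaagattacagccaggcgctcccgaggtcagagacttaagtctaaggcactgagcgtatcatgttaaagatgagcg

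In the model without a replicate block 1 gene, DDIT3, rose with KL1, by 1.72-fold, and no gene fell past the test's threshold. With the replicate number as a block, or with any 1 control or KL1 array left out, no gene passed in limma, and DDIT3 had an adjusted p of 0.0507 to 0.108. Genes of the ER and its stress response that stood among the larger differences were the degradation genes HERPUD1 (0.50) and SEL1L (0.36), the co-chaperone DNAJB9 (0.41), the stress factor ATF3 (0.32) and the chaperones HSPA5 (0.28) and HSP90B1 (0.21). None of these 6 passed. Outside the response, LURAP1L (0.37) and SCARNA6 (0.41) differed by similar amounts. ATF4 differed by -0.045. Listed targets of PERK and ATF4 other than DDIT3 and ATF3 were mixed. They ran from PSPH at -0.17 to SESN2 at 0.16, with ASNS at 0.032 and SLC7A11 at 0.15.

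The limma model, adjusted over all 17958 genes by Benjamini-Hochberg, called 1 gene at a threshold of 0.05, which is 0.00557% of those tested, and the next smallest adjusted p was 0.478. At an unadjusted p under 0.05 the model gave 537 genes higher (2.99%) and 379 lower (2.11%) in KL1. All 3 KL1 arrays lay above all 3 controls in 5.13% of genes and below them in 4.34%. Pair by pair, by replicate number, 2392 genes (13.3%) were higher in all 3 pairs and 3321 (18.5%) were higher in none. The latter count includes genes with equal values in a pair, so these counts give no balance of directions. With the replicate block 970 of the 17958 genes had an unadjusted p under 0.05 and 0 passed in limma. That level alone gives a count of about this size where no gene differs. Differences were small across the array: the 1st and 99th percentiles were -0.18 and 0.16, and 99.3% of genes had a 95% interval within 0.5 of no difference. The plot of every gene's difference against its p shows DDIT3 apart from the rest.

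**Figure D1:**
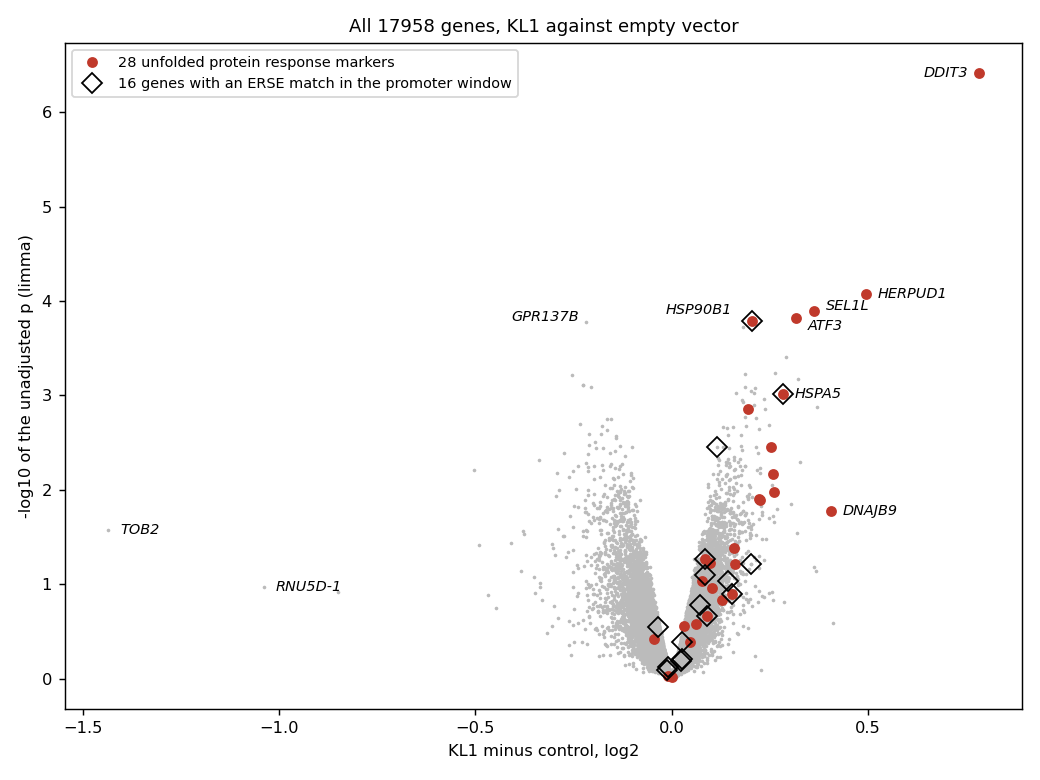
Each grey point is 1 of 17958 genes, with the log2 difference of KL1 minus control on the x axis and -log10 of the unadjusted limma p on the y axis. Red points are 28 markers of the unfolded protein response and open diamonds are 16 genes with an ERSE in the promoter window. DDIT3 stands alone at 0.78, and 26 of the 28 markers lie right of 0.

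DDIT3 encodes CHOP, a C/EBP-family transcription factor that ER stress and other stresses induce. Its log2 value was 6.67, 6.66 and 6.72 on control replicates 1, 2 and 3 and 7.45, 7.47 and 7.48 on KL1 replicates 1, 2 and 3. The groups were far apart relative to their spread, and the KL1 arrays lay within 0.023 of each other. The difference was 0.78 (SE 0.059, 95% interval 0.65 to 0.92, n = 3 arrays in each group), with an adjusted p of 0.00687 in limma. With the replicate number as a block the size stayed the same and the adjusted p was 0.0611 over 9 arrays and 0.0507 over 6, neither of which passes. Over all 20 alternative settings the adjusted p ran from 0.000154 to 0.239. The call ended when any 1 control or KL1 array was left out, with an adjusted p of 0.0688 to 0.108 and a difference of 0.77 to 0.80.

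Genes described as downstream of CHOP did not pass. The pseudokinase TRIB3, which inhibits AKT and feeds back on CHOP, differed by 0.13, with all 3 KL1 arrays above the controls. PMAIP1 (NOXA), a BH3-only protein of the BCL2 family, differed by 0.12, likewise without overlap. PPP1R15A (GADD34), which reverses eIF2alpha phosphorylation, differed by 0.048 and the death receptor TNFRSF10B by -0.0096. ERO1A, an ER oxidase, differed by -0.078, and BCL2, a survival factor that CHOP can repress, by -0.0064. Of 29 genes of the BCL2 family and death receptors, 15 were higher and 14 lower, with a median of 0.0030 that became -0.0015 when arrays were centred on their medians.

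Among the sensors, transcript differences were small. ATF6 differed by 0.0014 (95% interval -0.080 to 0.083), ERN1 by 0.063 and EIF2AK3 by 0.078. EIF2AK3 was 6.51, 6.48 and 6.42 on the controls and 6.54, 6.57 and 6.54 with KL1. Its groups did not overlap, but its interval of -0.016 to 0.17 holds 0. These are RNA levels, and the sensors act through cleavage and phosphorylation, which arrays do not read.

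Of the transcription factors, ATF3, a stress-induced partner of CHOP and ATF4, was 5.32, 5.22 and 5.27 in control and 5.58, 5.52 and 5.66 with KL1. The groups did not overlap, with a difference of 0.32 (SE 0.051) and an adjusted p of 0.478 in limma. XBP1 was 7.88, 7.90 and 8.001 in control and 7.90, 8.07 and 8.26 with KL1. Here the KL1 arrays spread over 0.36 and replicate 1 sat within the controls, for a difference of 0.15 (SE 0.091). It was 0.060 without KL1 replicate 3 and 0.24 without KL1 replicate 1, and the probe set does not separate spliced from unspliced RNA. ATF4 was 9.17, 9.13 and 9.19 against 9.12, 9.16 and 9.08, overlapping groups with a 95% interval of -0.16 to 0.066, and its second probe set gave -0.099. Of all 19 sensors and factors listed, 13 were higher, 1 of them past the threshold, with a median of 0.029 that was 0.012 without KL1 replicate 1 and 0.052 without KL1 replicate 2.

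The ER chaperones had the largest median of the 39 lists examined. Of 16 members of the HSP70 and HSP90 families, their J-proteins and related ER folding factors, 14 were higher and 2 lower, with a median of 0.14 against 0.0026 over all genes. In 8 of the 16 all KL1 arrays lay above all controls, where 5.13% of all genes did, and in 0 all lay below. None passed the threshold, and 8 had an unadjusted p under 0.05. The median over the list, measured from the mean of the controls, was 0.13, 0.18 and 0.097 on KL1 replicates 1, 2 and 3. The controls gave -0.0017, 0.0080 and -0.026, so the arrays of the groups did not overlap. Without KL1 replicate 2 the median difference was 0.11.

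HSPA5 (BiP), the HSP70 chaperone that binds unfolded chains and holds the sensors inactive, was 10.64, 10.67 and 10.61 in control and 11.03, 10.85 and 10.89 with KL1. All KL1 arrays were above the controls, by 0.28 (SE 0.059) on average. HSP90B1 (GRP94), its HSP90 counterpart, was 10.59, 10.59 and 10.56 against 10.80, 10.83 and 10.73, a difference of 0.21 (SE 0.033) without overlap. HYOU1, the nucleotide exchange factor of HSPA5, was 7.84, 7.91 and 7.90 against 8.02, 8.16 and 8.06, a difference of 0.20 (SE 0.043). Its groups were also apart, with adjusted p of 0.821 for HSPA5, 0.478 for HSP90B1 and 0.901 for HYOU1 in limma.

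The J-proteins that hand substrates to HSPA5 varied more among arrays. DNAJB9 was 5.17, 5.40 and 5.13 in control and 5.54, 5.98 and 5.41 with KL1. The lowest KL1 array lay only just above the highest control, and replicate 2 was highest in both groups. The difference was 0.41 (SE 0.14), with a 95% interval of 0.093 to 0.72. DNAJC3 (p58IPK), which also restrains PERK, was 6.64, 6.76 and 6.63 against 7.08, 6.88 and 6.85, apart by 0.26. DNAJB11 was 7.92, 7.74 and 7.62 against 8.11, 8.06 and 7.90, and here KL1 replicate 3 fell within the controls, although the mean difference of 0.26 was the same.

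MANF, an ER factor that binds HSPA5 and can be secreted, was 8.17, 8.16 and 8.12 in control and 8.26, 8.56 and 8.30 with KL1, a difference of 0.22 to which replicate 2 gave the most. SDF2L1, which works with DNAJB11, differed by 0.23 and CRELD2 by 0.086, both without overlap. The other 7 members ranged from -0.074 for CNPY3, a chaperone of Toll-like receptors, to 0.088 for SEC63, the J-protein of the translocon. SERPINH1, the collagen chaperone HSP47, differed by -0.025.

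**Figure D2:**
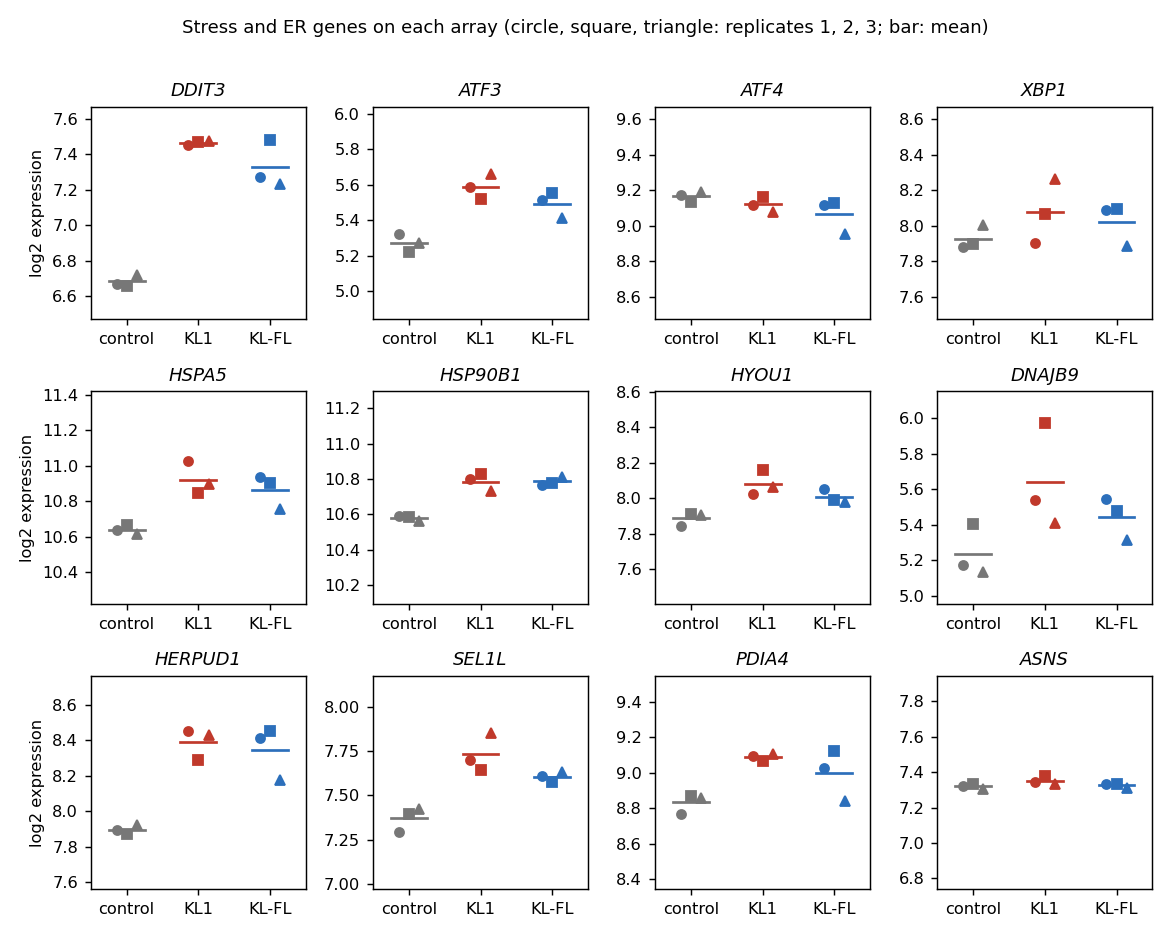
Each panel shows the log2 expression of 1 gene on the 9 arrays, with circles, squares and triangles for replicates 1, 2 and 3 and a bar at the group mean. Every y axis spans the same range of log2 units. DDIT3, ATF3, HSPA5, HSP90B1, HYOU1, HERPUD1, SEL1L and PDIA4 are higher on all 3 KL1 arrays than on any control, while ATF4 overlaps and ASNS differs by 0.032.

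The disulfide isomerases, oxidases and prolyl isomerases, which make and shuffle the bonds of secretory proteins, did not share this pattern as a list. Of 26 members 14 were higher and 12 lower, with a median of 0.0091 that turned to -0.0064 without control replicate 3. In 4, or 15.4% against 5.13% of all genes, the KL1 arrays lay above all controls: PDIA4 (0.25), ERP44 (0.14), PDIA3 (0.13) and PDIA6 (0.098). PDIA4 was 8.77, 8.87 and 8.86 in control and 9.09, 9.07 and 9.10 with KL1. ERP44, which retains unfinished disulfide-bonded proteins, was 7.44, 7.41 and 7.46 against 7.60, 7.56 and 7.59. In both genes the groups were apart and each was tightly spaced. P4HB, the classical protein disulfide isomerase, differed by 0.041 and the sulfhydryl oxidase QSOX1 by -0.14.

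In ER-associated degradation 19 of 32 members were higher and 13 lower, with a median of 0.061. Without KL1 replicate 2 that median was 0.033, and without control replicate 3 it was 0.037. In 7 members, or 21.9% against 5.13% of all genes, all KL1 arrays lay above the controls, and in 3, or 9.38% against 4.34%, they lay below. HERPUD1, a membrane protein that scaffolds the degradation complex, was 7.90, 7.87 and 7.92 in control and 8.45, 8.29 and 8.43 with KL1. The gap between the groups was wider than the range of either, and the difference of 0.50 (SE 0.073, 95% interval 0.33 to 0.66) had an adjusted p of 0.478 in limma. With array weights it was 0.51 and passed, at an adjusted p of 0.0252. In the other 19 settings HERPUD1 did not pass.

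SEL1L, the adaptor that links substrates to the ubiquitin ligase SYVN1, was 7.29, 7.39 and 7.42 in control and 7.70, 7.64 and 7.85 with KL1, apart by 0.36 (SE 0.056). SYVN1 (HRD1) itself was 7.14, 7.24 and 7.17 against 7.42, 7.27 and 7.17, so that replicate 1 was high and replicate 3 was within the controls. EDEM3, which trims mannose from misfolded glycoproteins, differed by 0.19 without overlap, and its relative EDEM1 by 0.16, where KL1 replicate 1 was highest at 5.66 and replicate 3, at 5.37, overlapped. SELENOK (0.16), DERL2 (0.13), SELENOS (0.12) and the ligase RNF139 (0.070) completed the members above all controls. Members of the extraction machinery were mixed, with the ATPase VCP at 0.069, its cofactor NPLOC4 at -0.058 and the channel protein DERL1 at -0.046.

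Assembly of N-glycans and the calnexin cycle had a median of 0.00030 over 26 genes, with 14 higher, and translocation and early secretory traffic 0.013 over 44 genes, with 27 higher. Both medians turned in sign without KL1 replicate 1. The largest difference in these lists was SEC24D (0.19), a cargo-binding subunit of the COPII coat, and the oxidoreductase subunit MAGT1 of the oligosaccharyltransferase differed by 0.13. CALR, the lectin chaperone calreticulin, differed by 0.091 and its membrane counterpart CANX by 0.073, with overlapping groups in both.

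The same genes were also sorted by reported regulation. The 5 ER lists above together hold 144 genes, 27 of which are also among reported targets of XBP1 and ATF6. Of those 27, 21 were higher, the median was 0.10 and in 15, or 55.6%, all KL1 arrays lay above the controls. Of the remaining 117, 67 were higher, the median was 0.012 and in 8, or 6.84%, they lay above, against 5.13% of all genes. The full target list of 31 genes had 24 higher and 7 lower, none past the threshold, with 13 higher and 0 lower at an unadjusted p under 0.05. The targets SRP54 (-0.082), KDELR3 (-0.063), DERL3 (-0.062) and SEC61B (-0.061) went the other way. The list was drawn up with results of these data known, so its direction is no independent evidence.

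The promoter search gave a smaller contrast. A window was at hand for 13864 of the genes, and 16 of them, or 0.115%, hold an ERSE. Of these 16, 13 were higher in KL1, with a median of 0.085, and in 5, or 31.2%, all KL1 arrays lay above the controls. Over all windows 51.9% of genes were higher, the median was 0.0022 and in 5.04% the KL1 arrays lay above. The 6 ERSE genes in the target list, HSPA5, HSP90B1, XBP1, SERP1, CALR and CRELD2, were all higher, with a median of 0.15. The other 10 had a median of 0.026, among them FICD (0.20), an enzyme that modifies HSPA5, TRIM5 (0.12), an antiviral factor, and ALG12 (-0.0092).

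ERSE-II letters occurred in 13 windows (0.0938%), with 9 genes higher and a median of 0.032. The UPRE core (TGACGTGG, either strand) occurred in 123 windows (0.887%), with a median of 0.010, and CARE in 99 (0.714%), with a median of 0.0093. In 5 of the UPRE genes (4.07%) all KL1 arrays lay above the controls and in 6 (4.88%) below. The CARE genes gave 7 (7.07%) and 3 (3.03%). Over all windows the shares were 5.04% and 4.37%. The largest of the 4 medians was that of ERSE, the element bound by ATF6 together with NF-Y. A match is a description of letters and not evidence of binding.

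Of the targets of PERK and ATF4 23 of 45 were higher and 22 lower, with a median of 0.00025, a sign that turned when arrays were centred on their medians. All KL1 arrays lay above the controls in 8, or 17.8% against 5.13% of all genes, and below them in 1, or 2.22% against 4.34%. At an unadjusted p under 0.05 in limma 4 were higher and 0 lower, and DDIT3 was the member past the threshold. Without DDIT3 and ATF3, 21 of 43 were higher and the median was -0.0093. Of these 43, all KL1 arrays lay above the controls in 6 (14%) and below them in 1 (2.33%). At an unadjusted p under 0.05 in limma 2 of the 43 were higher and 0 lower. ASNS, asparagine synthetase, was 7.32, 7.33 and 7.30 in control and 7.34, 7.38 and 7.33 with KL1, a difference of 0.032 with a 95% interval of -0.030 to 0.094. Its interval was the narrowest of the 28 markers. CHAC1, which degrades glutathione, was 6.93, 6.78 and 6.73 against 6.93, 6.61 and 6.87, with a wider interval of -0.27 to 0.25.

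SESN2 (sestrin 2), which restrains mTORC1, was 6.22, 6.05 and 6.12 in control and 6.34, 6.28 and 6.25 with KL1, apart by 0.16 (SE 0.067). The cystine transporter SLC7A11 (0.15) and the tRNA exporter XPOT (0.15) also lay above all controls. The serine synthesis enzymes went otherwise, with PSPH at -0.17, PHGDH at -0.066 and PSAT1 at 0.029. Of 20 aminoacyl-tRNA synthetase genes, a set that ATF4 also drives, 15 were higher with a median of 0.031, which was 0.0057 without KL1 replicate 2 and 0.058 without KL1 replicate 3. In 0 of them (0%) did all KL1 arrays lie above the controls, against 5.13% of all genes. AARS1 differed by 0.13 and WARS1 by 0.14.

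**Figure D3:**
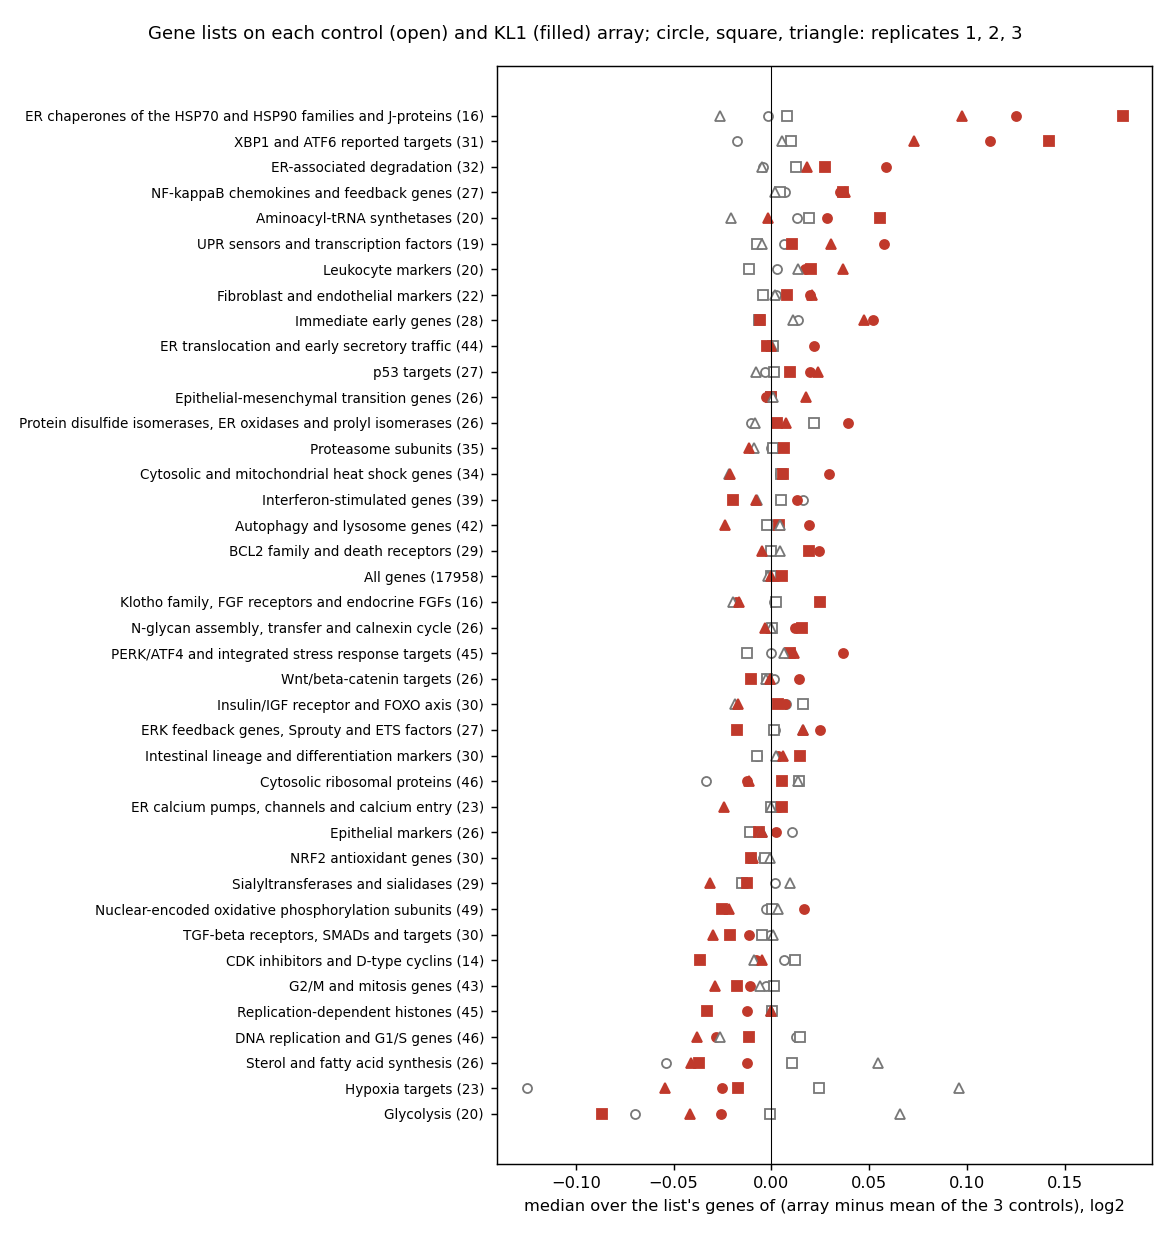
Each row is a gene list, with its number of genes in brackets, and each point is the median over those genes of 1 array minus the mean of the 3 controls, in log2 units. Open grey symbols are controls, filled red symbols KL1, and the shape gives the replicate. The ER chaperones, at 0.13, 0.18 and 0.097 on the KL1 arrays, and the XBP1 and ATF6 targets lie apart from their controls by the widest gaps of the lists drawn, while the controls of glycolysis, hypoxia and sterol genes spread more widely than their KL1 arrays.

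Among the 28 markers of the response, 26 were higher in KL1 and 2 lower, with a median of 0.16, where 52.2% of all genes were higher with a median of 0.0026. In 17, or 60.7% against 5.13% of all genes, all KL1 arrays lay above all controls. The markers were chosen with results of these data known, so these counts are no independent evidence. The median excess over the control mean was 0.17, 0.16 and 0.14 on KL1 replicates 1, 2 and 3, and 25, 26 and 24 markers were above it. The order of arrays differed from gene to gene. Replicate 1 was the highest KL1 array for 12 markers, among them HSPA5, DNAJC3, SYVN1 and EDEM1, and replicate 2 for 11, among them DNAJB9, MANF and HYOU1. Replicate 3 was highest for 5, among them XBP1, SEL1L and ATF3, and lowest for 12.

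Against full-length klotho KL1 showed no gene past the threshold. In limma 0 of 17958 genes (0%) passed and the smallest adjusted p was 0.848. Of the 17958 genes 906 had an unadjusted p under 0.05, a count near what that level gives where no gene differs. With array weights 1 gene passed, STARD9 (-0.40), and with each gene's own variance 1, ABCA3 (-0.032). DDIT3 was 7.27, 7.48 and 7.23 on KL-FL replicates 1, 2 and 3, so KL-FL replicate 2 reached the level of the KL1 arrays and the other 2 stayed below it. The DDIT3 difference of KL1 minus KL-FL was 0.14, with a 95% interval of 0.0034 to 0.27. Its unadjusted p was 0.0456 and its adjusted p 0.855 in limma, so it did not pass.

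Of the 28 markers 20, or 71.4% against 45.5% of all genes, were higher with KL1 than with KL-FL and 8 lower, between -0.18 for EDEM1 and 0.20 for DNAJB9. That count rested on KL-FL replicate 3, which scattered most of all arrays, with an SD over genes of 0.094 around its group mean. The median excess of the markers over the control mean was 0.17, 0.19 and 0.062 on KL-FL replicates 1, 2 and 3. Without replicate 3, a choice made after seeing the data, 13 markers (46.4%) were higher with KL1 and 15 lower, against 36.6% of all genes higher. The intervals of 27 lay within 0.5 of no difference, and that of DNAJB9 reached 0.51. HSP90B1 differed by -0.0012 (-0.076 to 0.074) and HERPUD1 by 0.045 (-0.12 to 0.21). SEL1L (0.13) and ATF3 (0.095) were higher on average with KL1. EDEM1, by contrast, was 5.62, 5.64 and 5.78 with KL-FL and 5.66, 5.46 and 5.37 with KL1. A p that misses the threshold does not show that both constructs act alike.

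Each construct against control shares the same 3 control arrays, so those differences are given side by side without a measure of likeness. DDIT3 differed by 0.78 with KL1 and 0.65 with KL-FL, HERPUD1 by 0.50 and 0.45, and HSPA5 by 0.28 and 0.23. EDEM1 differed by 0.16 with KL1 and 0.34 with KL-FL, and DNAJB9 by 0.41 and 0.21. Of genes outside the response, GPR137B, a lysosomal membrane protein, differed by -0.22 with KL1 and -0.096 with KL-FL. PXDN, a peroxidase that cross-links basement membrane collagen, differed by -0.21 with KL1 and -0.0070 with KL-FL, and KL1 minus KL-FL was -0.20 (unadjusted p = 0.0010 in limma, adjusted p = 0.855).

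**Figure D4:**
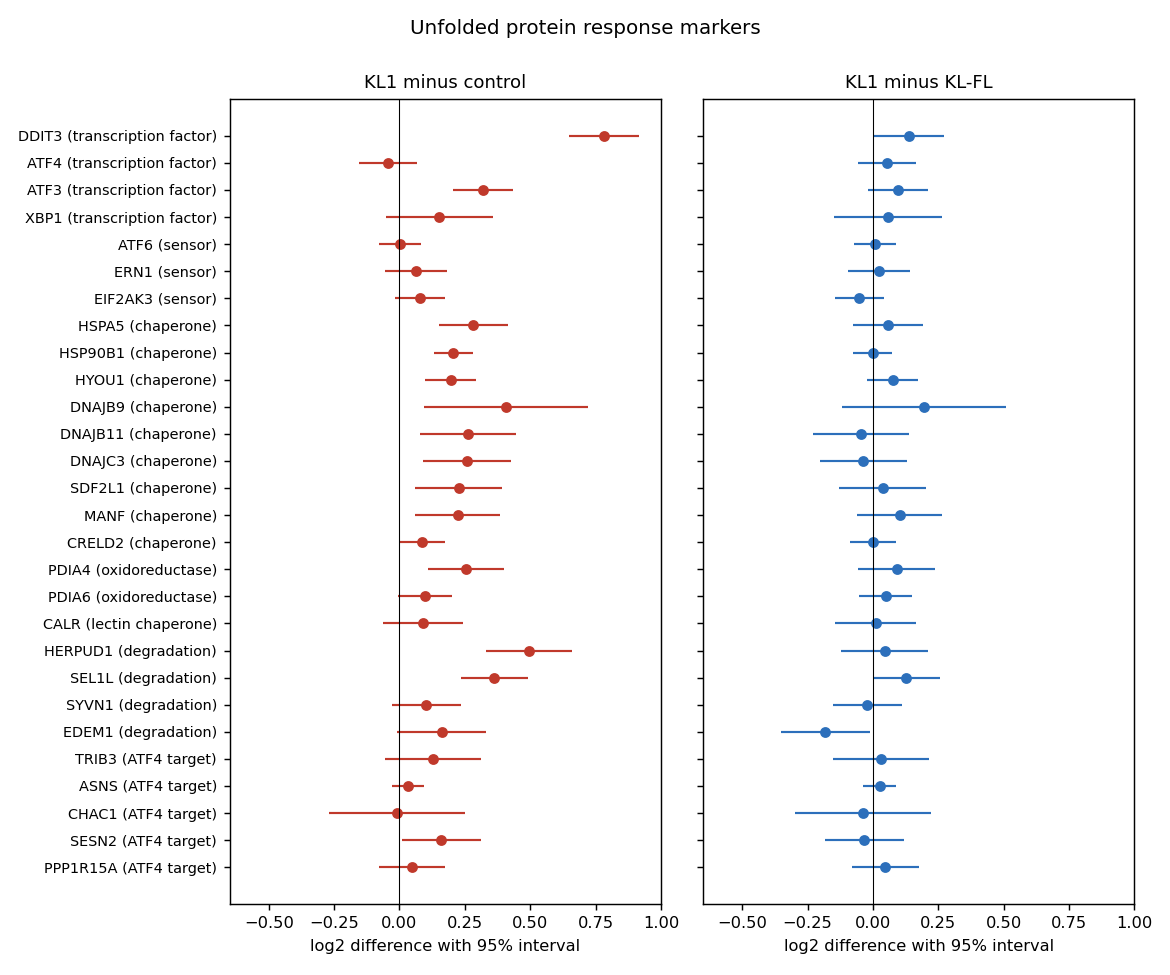
Points are log2 differences and lines their 95% intervals from limma for 28 markers of the unfolded protein response, ordered by role. The left panel is KL1 minus control and the right panel KL1 minus KL-FL. On the left DDIT3 runs from 0.65 to 0.92 and ASNS from -0.030 to 0.094. On the right 27 of the 28 intervals lie within 0.5 of no difference.

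KL itself was read on human probes, while the vector carries mouse sequence, so it is a weak check of the labels. It was 3.05, 3.06 and 3.03 in control and 3.27, 3.18 and 3.13 with KL1, apart by 0.15 (SE 0.040, adjusted p = 0.927 in limma). These values lie near the lower end of the table's range. The partners of klotho did not pass: its homologue KLB differed by 0.0017, the receptors FGFR1 to FGFR4 by 0.0015, -0.079, -0.061 and -0.061, and the ligand FGF23 by 0.066. Among 27 feedback genes of ERK signalling, which FGF receptors feed, 13 were higher and 14 lower. The growth factor HBEGF differed by 0.24 and the phosphatase DUSP6 by -0.11. In the insulin and IGF axis 15 of 30 genes were higher, and IGF1R, a receptor that klotho has been reported to restrain, differed by -0.18, or -0.054 at its other probe set.

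The 8 genes with the smallest p on the higher side were DDIT3, HERPUD1, SEL1L, ATF3, HSP90B1, the villin relative VILL (0.18), MIR26A1 (0.29) and the ubiquitin ligase PJA2 (0.26). The probe set of MIR26A1 was 3.10, 3.13 and 3.11 in control and 3.34, 3.44 and 3.43 with KL1, without overlap but at values near the lower end of the table's range of 1.79 to 12.4. Of its 2 mature products the 5p arm (RefSeq, GRCh38.p14, chr3:37969413-37969434, plus strand) is shown, with bases 2 to 8, the seed, in capitals, because MIR26A1 is the one microRNA gene in this group. The array does not separate the precursor from the mature form.
hsa-miR-26a-5p: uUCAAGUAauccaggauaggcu

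CTDSPL, the gene whose intron holds MIR26A1, differed by -0.050. On the lower side GPR137B was 7.21, 7.25 and 7.27 in control and 7.07, 6.97 and 7.04 with KL1, and it had an adjusted p of 0.478 in limma. The sodium channel ASIC1 differed by -0.23, the lactate transporter relative SLC16A13 by -0.23 and SPANXN1, a cancer-testis gene, by -0.25. DXO, a decapping nuclease, differed by -0.22 and its other probe sets by -0.19 each. THOC5, of the mRNA export complex, differed by -0.17 and ZFP36L1, which destabilises AU-rich messages, by -0.15. All 8 lower genes, PXDN included, had every KL1 array below every control, as did 4.34% of all genes, and none passed. They were picked by smallest p from these same arrays, so that separation follows largely from the choice.

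Of the 5 most negative differences of the table, 4 came from genes whose KL1 arrays were far apart. TOB2, an antiproliferative factor, was 9.71, 10.05 and 10.35 in control and 7.70, 10.13 and 7.98 with KL1, so that KL1 replicate 2 lay among the controls and the others far below. The difference was -1.44 (SE 0.54), and without KL1 replicate 2 it was -2.20. A further probe set named for the gene holds the same values, and the last gave 0.099. Whether the difference of -1.44 belongs to TOB2 is thus uncertain. The U5 small nuclear RNA genes RNU5D-1 (-1.04) and RNU5F-1 (-0.85) are near-identical copies whose probes may share signal, and both spread over more than 1 log2 unit among the KL1 arrays. DRAP1, a subunit of the repressor NC2, was 10.07, 9.98 and 9.87 in control and 9.57, 8.94 and 9.94 with KL1, overlapping groups with a difference of -0.49. SNORD58A, a small nucleolar RNA, was 5.46, 5.39 and 5.996 against 5.19, 4.97 and 5.17, below all controls on even arrays, with a difference of -0.50 (SE 0.14). On the higher side LURAP1L was 4.98, 4.85 and 5.12 against 5.46, 5.26 and 5.33, apart by 0.37 (SE 0.080, adjusted p = 0.901 in limma). SCARNA6 (0.41) was 4.40, 5.72 and 4.56 with KL1, and without replicate 2 it differed by -0.0015.

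The metabolic lists had medians within the spread among their controls. Glycolysis had 3 of 20 members higher and a median of -0.056, which was -0.019 without control replicate 3 and -0.089 without control replicate 1. Hypoxia targets had 4 of 23 higher and a median of -0.044 that became 0.015 without control replicate 3, and the controls alone gave -0.13, 0.024 and 0.096. Sterol and fatty acid genes had 5 of 26 higher and a median of -0.036, which was -0.015 without control replicate 3 and -0.064 without control replicate 1. In these 3 lists the KL1 arrays lay between the lowest and the highest control, except for glycolysis on replicate 2.

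DNA replication genes had 13 of 46 higher with a median of -0.033, which was -0.018 without control replicate 1. Mitosis genes had 14 of 43 higher with a median of -0.027, and under quantile normalization these medians were -0.019 and -0.011. All KL1 arrays lay below the controls in 6 replication genes (13%) and 4 mitosis genes (9.3%), against 4.34% of all genes. They lay above the controls in 2 (4.35%) and 0 (0%), against 5.13% of all genes, and none passed. The mitosis median was -0.011, -0.018 and -0.029 on KL1 replicates 1, 2 and 3, below the controls at -0.0026, 0.0016 and -0.0057. The replication median was -0.029, -0.012 and -0.038 on the KL1 arrays, overlapping the controls at 0.013, 0.014 and -0.026. CDK1, the kinase of mitotic entry, differed by -0.14 and its phosphatase CDC25C by -0.13. RFC2, of the clamp loader, differed by -0.18 and POLD1, of DNA polymerase delta, by -0.12. Of the p53 targets 15 of 27 were higher, with TP53INP1 at -0.19 and the nuclease AEN at 0.14.

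Of 30 intestinal lineage and differentiation genes 14 were higher and 16 lower, with a median of -0.0056. The lists of fibroblast and endothelial markers and of leukocyte markers both had small positive medians. Of 22 fibroblast and endothelial genes 17 were higher with a median of 0.020, and of 20 leukocyte genes 16 with a median of 0.022. Without control replicate 2 the former median was 0.0093, and without KL1 replicate 3 the latter was 0.013. Their controls ran from -0.0041 to 0.0024 and from -0.012 to 0.014. Their part in the other results was not tested. Under quantile normalization the medians were 0.0017 and 0.0035, while that of the ER chaperones was 0.16. NF-kappaB targets had 20 of 27 higher with a median of 0.041, none past the threshold, and TNFAIP3, their feedback inhibitor, differed by 0.13.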

How the data were processed

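Log2 expression values for 9 arrays were used as the authors deposited them, in 1 table, and the log base was read from their range. Partek 6.6 is named in the submitters' processing notes. How background was removed and arrays were normalized is not given in the sources used here. Without detection calls dim and absent genes look alike.

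Gene names came from the platform's annotation (2055 named several genes and 12061 were unnamed here). For the 895 genes with several probe sets the probe set brightest on average was used. Of the symbols, 38 had no match in a current RefSeq gene table. A linear model with 3 groups was run in R 4.3.3 using limma 3.58.1 and its moderated variances (eBayes), with 6 residual degrees of freedom and two-sided p-values adjusted by Benjamini-Hochberg over all genes. The code was run on simulated data with independent noise and no replicate pairing, which does not measure its error rate on these arrays. Same-numbered control and KL1 arrays deviated together (correlations 0.113, 0.322 and 0.186), so a replicate block was also fitted. The titles number the replicates without stating a pairing. The main model has no block, and each SE, interval and p is from it unless another setting is named. Deviations from group means are not independent, and KL-FL and KL1 arrays did not pair (0.012, -0.095 and -0.095). Promoter and microRNA sequences came from RefSeq.

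The genes compared and the lists were chosen with earlier results of these data known. Named by rule are KL, 28 markers of the unfolded protein response, the 8 smallest p in each direction, the 5 largest and 5 most negative differences and the 2 smallest p of each of 39 lists. Other genes were named after their values were seen. Alternatives covered normalization, array weights, the variance model, the block, the arrays fitted, the probe set rule, a filter on dim genes and each array left out.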

Additional observations from a re-analysis of the deposited data

How the results depend on the processing

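Over 20 alternative settings the number of genes past the threshold in KL1 minus control was 1 in the main analysis, 2 with array weights (DDIT3 and HERPUD1), 0 with each gene's own variance, 0 with the replicate block over all 9 arrays or over the 6 compared, and 0 with every probe set tested. Leaving out arrays gave 0 to 1, with 0 for each control or KL1 array and 1 for each KL-FL array. The DDIT3 difference was 0.78 in all of those fits, with adjusted p = 0.239 (own variance), 0.0611 and 0.0507 (replicate block, 9 and 6 arrays) and 0.0519 (every probe set) in limma, and 0.77 to 0.80 with 1 array left out. KL1 minus KL-FL gave 1 gene with array weights, 1 with each gene's own variance and 0 otherwise. The count of 28 markers higher in KL1 than in KL-FL was 20, and 13 without KL-FL replicate 3. The median of ER-associated degradation was 0.061 in the main analysis and 0.033 to 0.061 with arrays left out, and that of the ER chaperones 0.11 to 0.16. Signs turned for ATF6 (-0.0031 with arrays centred on their medians, -0.0011 with array weights, and from -0.010 to 0.0086 with arrays left out), ERN1 (-0.00083 without control replicate 1) and CHAC1 (0.0093 under quantile normalization, 0.035 with array weights, and from -0.072 to 0.087 with arrays left out). Of 73 other named genes 1 turned in sign, SCARNA6, and 0 passed in any setting. Where every probe set was tested the adjustment covered more features, and leaving out an array left fewer samples. The cause of the other changes was not tested. Centring arrays on their medians moved the share of genes higher among those at an unadjusted p under 0.05 from 58.6% to 49.6%. The replicate block changed no other call. The arrays carry no background signal or detection value here, so what dimness limits was not measured.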
